A study of Mus musculus with 9 samples.

Results

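Slc4a1, Rhd, Rhag, Ermap, Kel, Epb42, Ank1 and Aqp1 encode proteins of the red cell membrane and of the skeleton under it, and they are 8 of the 54532 genes in the deposited table. They were picked by name after earlier results of these data had shown them far higher in T-DC samples 2 and 3 than in T-DC sample 1 and the mature cells. Those levels chose the genes, so they are given here as a description, and counts of calls on the same contrasts are printed only beside those over all genes, as no evidence. RNA was sequenced from 9 samples of sorted mouse spleen cells, 3 in each of 3 groups named N-mDCs, T-mDCs and T-DCs. The study set out to describe CD11c+ dendritic cells (DCs) with low surface MHCII that accumulate in the spleen in T-cell acute lymphoblastic leukemia (T-ALL). N-mDCs were mature conventional DCs of normal mice without treatment. Leukemic mice gave the other two groups, mature conventional DCs (T-mDCs) and CD11c+MHCIIlo cells (T-DCs). According to the study's methods, the leukemia came from bone marrow progenitors that carried the intracellular domain of Notch1 together with GFP, and leukemic cells were passed to mice that were not irradiated. Young adult female mice on the C57BL/6 background were used. Red cells were lysed with ammonium chloride, CD11c+ cells were enriched on microbeads and the cells were sorted by flow cytometry. The gate shown for T-DCs left out GFP+ leukemic cells and T, B and NK cells, and no red cell marker was named in it. Whether each sample came from 1 mouse or from several was not stated in the labels, so the p-values below measure the spread between these samples, which may be technical.

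A red cell carries its membrane on a meshwork of spectrin. Band 3, the product of Slc4a1, exchanges chloride for bicarbonate and is the most abundant protein of this membrane. Ankyrin, the product of Ank1, ties band 3 to the spectrin meshwork, and protein 4.2, the product of Epb42, binds both. The Rh proteins, the Kell glycoprotein, the Ermap protein and the water channel aquaporin-1 carry blood groups in humans. The genes of these proteins are switched on as erythroblasts mature, and the mouse spleen is a site of red cell formation in which erythroblasts sit next to macrophages.

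Whole-gene positions in genome build mm10 were chromosome 11, 102348824 to 102366203 for Slc4a1 (ENSMUSG00000006574) and chromosome 8, 22974844 to 23150497 for Ank1 (ENSMUSG00000031543). Epb42 (ENSMUSG00000023216) lay on chromosome 2, 121017891 to 121037072. Rhd (ENSMUSG00000028825) and Ermap (ENSMUSG00000028644) lay on chromosome 4, at 134864536 to 134896172 and 119175457 to 119190011, and Rhag (ENSMUSG00000023926) on chromosome 17, 40811126 to 40840754. Kel (ENSMUSG00000029866) and Aqp1 (ENSMUSG00000004655) lay on chromosome 6, at 41686330 to 41704339 and 55336432 to 55348555. The deposited gene length equalled the union of the annotated exons, UTRs included, for all 8 genes. In the annotation an antisense gene, Gm15816, spans 10033 of the 13527 exon bases of Ank1. Gm15816 was at 0 to 3.78 FPKM in the 9 samples, and as the counting is not stated to use strand, its reads and those of Ank1 cannot be told apart.

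Promoter sequences were available from RefSeq (build GRCm38.p6, 300 bases that end shortly after the start these sequences use) for 6 of the 8 genes, and not for Slc4a1 and Ank1. The window of Aqp1 ended at 55336348, before the deposited start of that gene at 55336432, so it did not reach that start. The window of Epb42, on the minus strand, ran from 121037127 to 121036828. It thus ended well inside the gene, whose deposited start was at 121037072. The promoters of 4 genes are shown, since these genes moved together across the 9 samples while their start regions differed in the letters they held. They lie at chr4:134864286-134864585 (plus strand, Rhd), chr17:40810899-40811198 (plus strand, Rhag), chr6:41704276-41704575 (minus strand, Kel) and chr6:55336049-55336348 (plus strand, Aqp1). Each is written 5′ to 3′, with capitals where a searched motif matched on either strand.
Rhd: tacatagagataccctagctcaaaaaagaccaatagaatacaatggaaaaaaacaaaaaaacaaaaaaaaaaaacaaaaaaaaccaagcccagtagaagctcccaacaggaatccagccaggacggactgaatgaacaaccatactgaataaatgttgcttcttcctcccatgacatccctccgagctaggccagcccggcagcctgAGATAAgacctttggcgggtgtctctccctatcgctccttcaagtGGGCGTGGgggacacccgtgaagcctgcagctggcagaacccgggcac
Rhag: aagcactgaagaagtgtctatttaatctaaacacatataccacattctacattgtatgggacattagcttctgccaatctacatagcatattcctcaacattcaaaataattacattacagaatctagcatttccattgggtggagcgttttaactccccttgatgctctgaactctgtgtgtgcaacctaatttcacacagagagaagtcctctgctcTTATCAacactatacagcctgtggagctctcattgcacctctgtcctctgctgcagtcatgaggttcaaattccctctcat
Kel: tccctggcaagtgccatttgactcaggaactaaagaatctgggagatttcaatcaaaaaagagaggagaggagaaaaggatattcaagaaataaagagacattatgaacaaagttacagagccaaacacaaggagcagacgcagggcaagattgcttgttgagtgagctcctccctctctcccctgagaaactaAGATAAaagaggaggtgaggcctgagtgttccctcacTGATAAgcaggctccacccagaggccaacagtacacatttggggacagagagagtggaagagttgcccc
Aqp1: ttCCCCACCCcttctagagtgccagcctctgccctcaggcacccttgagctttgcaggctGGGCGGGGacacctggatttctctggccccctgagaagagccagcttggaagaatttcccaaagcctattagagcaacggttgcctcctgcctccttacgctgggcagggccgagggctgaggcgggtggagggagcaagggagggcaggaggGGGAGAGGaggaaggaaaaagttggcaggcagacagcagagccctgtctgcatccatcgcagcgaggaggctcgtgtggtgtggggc
The motifs searched were AGATAA, with T also allowed as its first base and G as its last, the letters that GATA factors bind, and CCNCNCCC, the CACC box that Krüppel-like factors bind, of which CCACACCC is 1 form. Of the 6 promoters, 5 held a GATA motif, against 29.8% of all 32851 promoters of this length. Positions count from the start that the promoter sequences use. For Epb42 that start lies within the deposited gene, so its position is not a distance from the deposited start. The GATA matches began at position -43 in Rhd, -31 in Rhag, -67 in Ermap and -226 in Epb42, and at -56 and -19 in Kel. Aqp1 held none and had CCNCNCCC at 3 places. That motif was found in 2 of the 6 promoters, Rhd and Aqp1, and in 49.5% of all promoters, and CCACACCC in 0 of 6 and 3.56%. These are matches of letters in a short window and no measurement of binding.

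Some libraries stood apart before any comparison. The hemoglobin genes took 3.82% and 3.0% of the reads on genes in T-DC samples 2 and 3, and 0.00111% to 0.405% in the other 7 samples. T-mDC samples 2 and 3 were much more alike than any other pair of a group. Over genes with 20 to 200 reads the chi-square per gene between them was 1.85, against 8.11 to 36.1 for the other pairs, so calls that rest on them are also given with their mean as 1 sample. Reads on genes ranged from 15360815 to 18440913 per sample, and a single read per kilobase of gene came to 0.0517 to 0.0659 FPKM. Levels are given as FPKM, which divides the reads of a gene by its length and by a library size, so that genes can be compared per length.

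The 3 genes of the band 3 and ankyrin complex were among the most and the least abundant of the members. Slc4a1 was at 21.3, 1878 and 1304 FPKM in T-DC samples 1 to 3, at 1.07, 25.7 and 9.13 FPKM in N-mDC samples 1 to 3, and at 5.61, 0.4655 and 0.389 FPKM in T-mDC samples 1 to 3. T-DC samples 2 and 3 stood far above the rest, and N-mDC sample 2 was above T-DC sample 1, so the groups overlapped. Among the 12746 tested genes Slc4a1 ranked 14 in T-DC sample 2 and 17 in T-DC sample 3, but 2679 in T-DC sample 1 and 12267 in T-mDC sample 3. Epb42 was at 1.92, 116.5 and 77.9 FPKM in T-DCs, 0.0826, 1.46 and 0.722 FPKM in N-mDCs, and 0.391, 0.0478 and 0.0703 in T-mDCs. Each T-DC sample was above each mature sample, with T-DC sample 1 close to N-mDC sample 2. Ank1 was at 1.16, 92.7 and 74.2 FPKM in T-DCs, 0.132, 0.964 and 0.407 FPKM in N-mDCs, and 0.482, 0.1645 and 0.185 in T-mDCs. It was below 1 FPKM in all 6 mature samples and passed the filter on low values, which asked for 1 FPKM or more in 3 samples or more, only through the T-DC samples.

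Rhd and Rhag encode the Rh protein and the Rh-associated glycoprotein, which form 1 complex in the membrane and of which the second conducts ammonia. Rhd was at 4.41, 505 and 342 FPKM in T-DCs, 0.4815, 13.1 and 1.45 FPKM in N-mDCs, and 1.23, 0.195 and 0.102 in T-mDCs. Rhag was at 3.485, 299 and 251 FPKM in T-DCs, 0.109, 1.70 and 0.730 FPKM in N-mDCs, and 1.18, 0.0664 and 0.1395 in T-mDCs. The pair differed in N-mDC sample 2, where Rhd stood above T-DC sample 1 and Rhag below it. Relative to N-mDC sample 2, T-DC sample 1 held 0.336 times the Rhd (95% interval 0.272 to 0.414, exact, from the reads) and 2.05 times the Rhag (1.52 to 2.80). Rhag made up 2.84% to 4.27% of the summed FPKM of the 8 genes in N-mDCs and 7.34% to 8.17% in T-DCs, and Rhd 8.24% to 21.9% and 9.55% to 12.4%.

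Kel encodes a zinc endopeptidase of the membrane, and Ermap a protein of the butyrophilin family first described in erythroblasts. Kel was at 2.80, 249 and 169 FPKM in T-DCs, 0.115, 3.05 and 0.953 FPKM in N-mDCs, and 1.03, 0.0933 and 0.0784 in T-mDCs. Ermap was at 2.70, 170.3 and 180.0 FPKM in T-DCs, 0.326, 2.43 and 0.842 FPKM in N-mDCs, and 0.830, 0.0879 and 0.0924 in T-mDCs. Ermap was the only member with a higher value in T-DC sample 3 than in T-DC sample 2, and when values were rescaled to TPM it too was lower in sample 3, at 0.9535 times its level in sample 2. Aqp1, the water channel, which endothelium and kidney use as well, was second to Slc4a1 in level in T-DC samples. Its values were 8.44, 767 and 677 FPKM in T-DCs, 0.2435, 11.5 and 3.38 FPKM in N-mDCs, and 2.44, 0.433 and 0.228 in T-mDCs. As for Slc4a1, Rhd and Kel, N-mDC sample 2 was above T-DC sample 1.

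**Figure D1:**
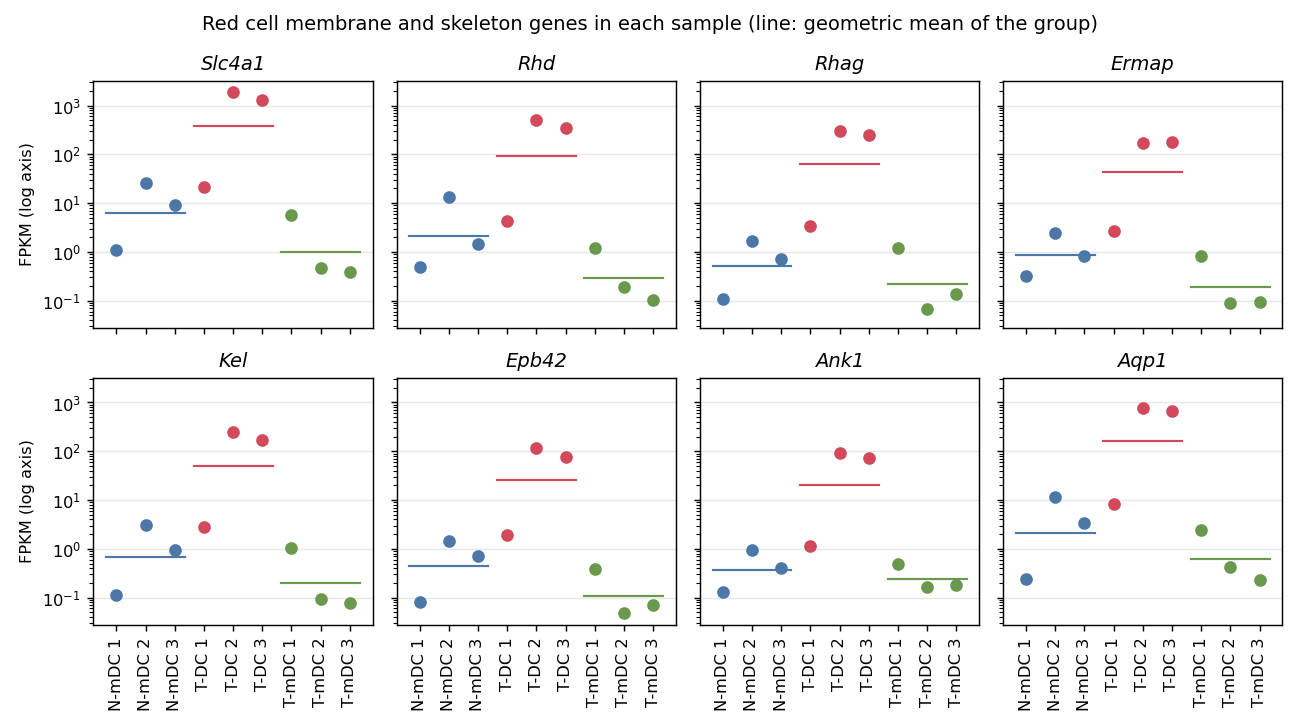
FPKM of the 8 members on a logarithmic axis, 1 point per sample, with the 3 N-mDC samples in blue, the 3 T-DC samples in red and the 3 T-mDC samples in green; the line of each group is its geometric mean. T-DC samples 2 and 3 lie at 74.2 to 1878 FPKM, while T-DC sample 1 lies at 1.16 to 21.3 FPKM, near N-mDC sample 2.

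The 8 genes put the libraries in nearly 1 order. T-DC samples 2 and 3 held the top ranks for every member, followed by T-DC sample 1 and N-mDC sample 2 in either order, and T-mDC samples 2 and 3 were among the lowest 3 samples for 8 of 8. Against T-DC sample 1, T-DC sample 2 held 60.8 times the level for Epb42 (95% interval 52.6 to 70.7) to 114.5 times for Rhd (96.1 to 137.5), with a median of 87.0 over the members. T-DC sample 3 held 40.6 times the level for Epb42 (35.1 to 47.3) to 80.3 times for Aqp1 (72.7 to 88.9), with a median of 65.5. The median ratio over all tested genes was 0.9496 and 0.960, on the scale of FPKM + 1. On that scale 8 of 8 members were at least 8-fold higher in both samples than in T-DC sample 1, as were 1.91% of the tested genes. The rule used this contrast, and nothing is read from that count. These intervals cover counting error only, and each ratio compares 2 libraries with no replicate.

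T-DC sample 1 lay close to the highest mature samples. It was higher than each T-mDC sample for all 8 members, and against T-mDC sample 1, the highest of that group, its level was 2.40 times as high for Ank1 (95% interval 1.93 to 2.99) to 4.90 times for Epb42 (3.47 to 7.08). Against N-mDC sample 2 the ratio ran from 0.336 to 2.05 with a median of 1.02, and 4 members were above 1. Each T-DC sample was above each mature sample for 4 of 8 members, Rhag, Ermap, Epb42 and Ank1, against 9.20% of the tested genes, a count that the choice of genes partly fixed. The mature groups had a spread of their own. N-mDC sample 2 was above N-mDC sample 3, and sample 3 above sample 1, for every member, with N-mDC sample 2 at 7.28 (Ank1) to 47.2 (Aqp1) times the level of sample 1. T-mDC sample 1 was at 2.61 to 17.7 times the level of T-mDC samples 2 and 3, and the highest of these ratios rested on 52 and 3 reads of Rhag (95% interval 5.75 to 88.8).

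By group, the mean of Slc4a1 was 1070 ± 951 FPKM (SD, n = 3) in T-DCs, against 12 ± 12.6 FPKM in N-mDCs and 2.15 ± 2.99 in T-mDCs. Aqp1 followed at 484 ± 415, 5.04 ± 5.80 and 1.03 ± 1.22 FPKM, Rhd at 284 ± 255, 5.02 ± 7.04 and 0.509 ± 0.626 FPKM, and Rhag at 185 ± 159, 0.846 ± 0.801 and 0.461 ± 0.622 FPKM. For Kel the means were 140.0 ± 125, 1.37 ± 1.51 and 0.401 ± 0.546 FPKM, for Ermap 118 ± 99.7, 1.2 ± 1.09 and 0.337 ± 0.427 FPKM, for Epb42 65.4 ± 58.3, 0.754 ± 0.687 and 0.170 ± 0.192 FPKM, and for Ank1 56.0 ± 48.4, 0.501 ± 0.424 and 0.277 ± 0.178 FPKM. The SD was close to the mean or above it in most groups, since the T-DC group is made of 1 low and 2 high samples and the mature groups have 1 sample above the others. On the scale of log2(FPKM + 1), which understates changes of low genes, T-DCs were higher by 4.08 (Ank1) to 5.52 (Slc4a1) than N-mDCs and by 4.29 (Ank1) to 7.32 (Slc4a1) than T-mDCs. With limma over all tested genes and an adjusted p under 0.05, 4 members were called higher against N-mDCs (Rhag, Ermap, Kel and Epb42) and 8 against T-mDCs, and 0 lower. Of all tested genes 6.10% were called higher and 10.3% lower against N-mDCs, and 5.44% higher and 8.79% lower against T-mDCs. The genes were chosen on these contrasts, so the counts support nothing. With T-DC sample 1 alone as the T-DC group, the median log2 difference of the members was 0.87 in place of 4.72 against N-mDCs and 1.61 in place of 5.5 against T-mDCs. In bulk samples such as these, fewer cells of a type and less RNA per cell cannot be told apart.

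The rule did not set the mature groups against each other, so that difference was tested. All 8 members had a lower mean in T-mDCs than in N-mDCs on the log2 scale, and none of the differences passed the threshold. The difference was -1.79 for Slc4a1 (standard error 1.66, 95% interval -5.56 to 1.98, limma adjusted p = 0.632), -1.38 for Rhd and -1.16 for Aqp1 (limma adjusted p = 0.709 and 0.758). For Ermap, Kel and Epb42 it was -0.65, -0.63 and -0.52, and for Rhag and Ank1 -0.32 and -0.20, with adjusted p from 0.843 to 0.951. With limma, 0 of 8 members were called and 0 had an unadjusted p under 0.05, while 0.690% of all tested genes were called higher and 1.52% lower. The test had little room for 5 of the 8, which reached the filter only with the help of T-DC samples. Of the 6 mature samples, 2 were at 1 FPKM or more for Rhag and Kel, 1 for Ermap and Epb42 and 0 for Ank1, so their differences on this scale lie near its floor. The intervals were wide, and differences of several-fold in either direction lay within them. The fit shared 1 estimate of the spread among the 3 groups, and the T-DC samples, which this comparison does not use, spread most. On the log2 scale the SD of Ank1 was 3.05 in T-DCs, 0.40 in N-mDCs and 0.19 in T-mDCs. For Slc4a1 it was 3.55, 1.86 and 1.28. Without N-mDC sample 2 the difference of Ank1 was 0.01, and with T-mDC samples 2 and 3 as 1 sample the count stayed at 0.

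T-DC samples 2 and 3 differed from each other in a way that varied with the gene. For 7 members the level in sample 3 was lower, and the exact 95% interval from the reads lay below 1 for each of these 7. Of all tested genes 53.6% were lower in sample 3. Epb42, Rhd, Kel and Slc4a1 were at 0.669 (0.648 to 0.690), 0.677 (0.658 to 0.696), 0.681 (0.660 to 0.701) and 0.694 (0.689 to 0.700) times their level in sample 2. Ank1, Rhag and Aqp1 were at 0.80 (0.784 to 0.818), 0.840 (0.8165 to 0.864) and 0.883 (0.8685 to 0.897), and Ermap at 1.06 (1.03 to 1.08). The middle 90% of tested genes, from the 5th to the 95th percentile, ran from 0.538 to 1.58 on the scale of FPKM + 1. Beside these, the 5 markers of early erythroid progenitors had ratios above 1, with Kit at 2.11 (1.94 to 2.29) and Gata2 at 2.91 (2.22 to 3.85). The interval of Cd34 held 1 (1.05, 0.6365 to 1.74), and its ratio was 0.948 when values were rescaled to TPM. Some of these genes were as high or higher in the mature samples. Kit was at 19.9 to 43.3 FPKM in the mature samples against 2.91, 5.97 and 12.6 FPKM in T-DC samples 1 to 3, and the summed level of the 5 genes was 42.0 to 71.3 FPKM in the mature samples against 15.7, 32.6 and 64.5 FPKM in T-DCs. The basophil genes Prss34 (1.91 and 4.28 FPKM) and Mcpt8 (0.905 and 2.05 FPKM) were higher in T-DC sample 3 than in sample 2 as well, and their part in the values of Gata2 was not tested. All 8 markers of late erythroblasts and reticulocytes were lower in sample 3 under each scaling, from 0.258 (0.247 to 0.270) for Bpgm, the enzyme that makes 2,3-bisphosphoglycerate, to 0.697 (0.675 to 0.720) for Trim10. Of the 10 erythroid regulators and enzymes, 5 were higher in sample 3, among them Klf1 at 1.25 (1.21 to 1.29), and 5 were lower, among them Alas2, the first enzyme of heme synthesis in erythroid cells, at 0.443 (0.435 to 0.4505). These are ratios of 2 libraries, with no replicate.

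**Figure D2:**
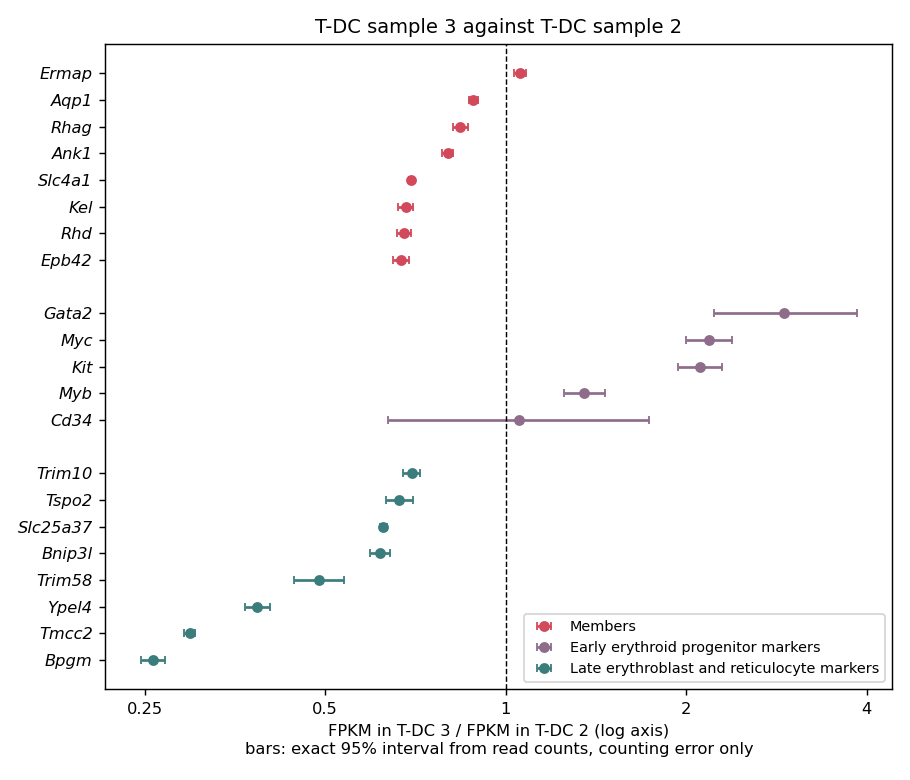
Ratio of FPKM in T-DC sample 3 to FPKM in T-DC sample 2 on a logarithmic axis, 1 point per gene, with exact 95% intervals from the reads (counting error only), for the 8 members in red, 5 markers of early erythroid progenitors in purple and 8 markers of late erythroblasts and reticulocytes in teal. The members lie from 0.669 to 1.06, the early markers from 1.05 to 2.91 and the late markers from 0.258 to 0.697.

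The level of hemoglobin relative to the members separated normal from leukemic spleen, a pattern that was noticed after the values were seen. The summed FPKM of the hemoglobin chains was 37.7, 88.0 and 26.4 times that of the 8 members in N-mDC samples 1 to 3. In T-DC samples 1 to 3 it was 12.1, 13.3 and 12.8 times as high, and in T-mDC samples 1 to 3 12.7, 13.4 and 10.5 times. All 6 leukemic samples were below all 3 normal samples, although the summed FPKM of the members ran from 1.29 to 4078 among the leukemic samples. Taken gene by gene, hemoglobin over the member was higher in each N-mDC sample than in each leukemic sample for 7 of 8 members, all but Ermap, and for 0.123% of the 12208 tested genes above 0 in every sample. Summed hemoglobin was at 54050 and 39360 FPKM in T-DC samples 2 and 3 and at 96.75 FPKM in N-mDC sample 1. Only a gene raised very far in those T-DC samples can meet this pattern. The members were chosen for such a rise, so the share is no background for them and the count supports nothing. For Slc4a1 it was 90.2, 205 and 50.9 in N-mDCs, 26.3, 28.8 and 30.2 in T-DCs, and 29.9, 44.6 and 34.7 in T-mDCs. T-mDC samples 2 and 3 held 137 and 121 reads on the 8 genes together, so their ratios rest on few reads. For Sptb, a membrane gene that is no member, the groups overlapped, with 214, 3270 and 462 in N-mDCs against 328, 333 and 331 in T-DCs. Whether the source of the hemoglobin reads differed between normal and leukemic spleen was not tested.

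**Figure D3:**
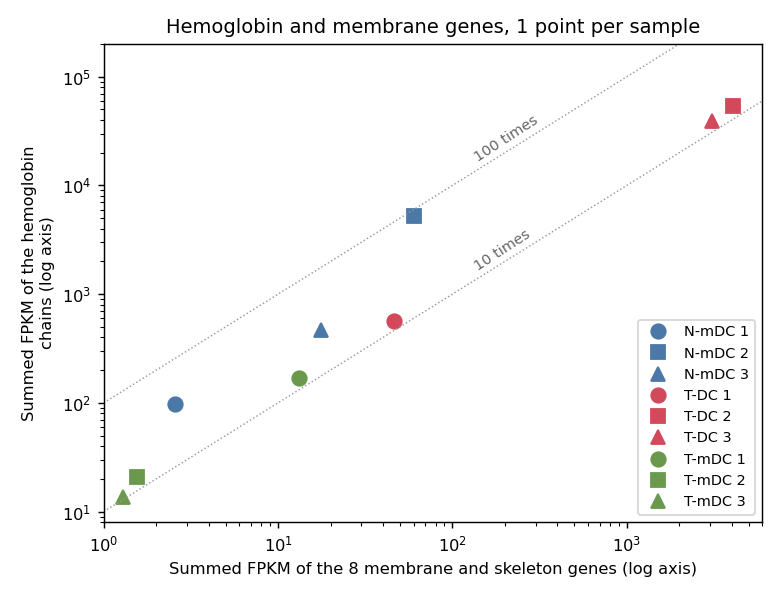
Summed FPKM of the 7 hemoglobin chains against the summed FPKM of the 8 members, both on logarithmic axes, 1 point per sample, with dotted lines at 10 and 100 times. The 6 leukemic samples lie along the lower line, at 10.5 to 13.4 times, and the 3 N-mDC samples above it, at 26.4 to 88.0 times.

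Other genes of the red cell membrane were taken from 3 lists, of 13 skeleton proteins, 16 glycoproteins and blood group carriers, and 16 transporters and channels. Of these 45 genes, 35 could be tested. In T-DCs 7 of the 35 rose against N-mDCs and 2 fell, against 6.10% and 10.3% of all tested genes, and the median log2 difference was 0.83 against 0.05 over all tested genes. Against T-mDCs, 11 rose and 1 fell, against 5.44% and 8.79%, and the median was 1.23 against 0.07. Between the mature groups 0 of 35 were called with limma, 3 had an unadjusted p under 0.05, and the median was -0.22 against 0.03. By list, Add1 and Mpp1 of the skeleton proteins rose against N-mDCs, Cd47 of the glycoproteins, and Stom, Slc29a1, Atp2b4 and Slc12a4 of the transporters. Those that rose against T-mDCs were Sptb, Epb41 and Mpp1 of the skeleton proteins, Cd55, Cd59a and another of the glycoproteins, and the same transporters with Slc43a1. The counts include genes that passed the filter only with the help of T-DC samples, where they were high. These were Atp2b4 in both comparisons, and Sptb and Cd59a against T-mDCs, and their calls support nothing. Sema7a fell in both comparisons and Slc2a1 against N-mDCs. These counts depended on single libraries of each group. Without T-DC sample 1, 22 rose in each comparison, against 20.5% and 18.3% of all tested genes. Without T-DC sample 2, 2 rose in each, against 1.95% and 1.45% of all tested genes, and without T-DC sample 3, 2 and 4 rose, against 2.90% and 3.02%. Leaving out 1 mature sample gave 1 to 4 against N-mDCs, the lowest without N-mDC sample 1 or 3, and 2 to 6 against T-mDCs, the lowest without T-mDC sample 2 or 3. With T-mDC samples 2 and 3 as 1 sample, 3 (Mpp1, Slc29a1 and Slc12a4) and 2 (Mpp1 and Slc29a1) rose, against 3.17% and 0.667%. With T-DC sample 1 alone, 0 and 3 rose, against 2.31% and 2.30%. In that fit the T-DC group has 1 sample, which is assumed to vary like the mature groups.

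Mpp1 and Slc29a1 rose in both comparisons and with each sample left out in turn, except that Slc29a1 lost the call against N-mDCs without N-mDC sample 1 or 3. Mpp1, the palmitoylated protein p55 of the skeleton junction, was at 28.7, 59.1 and 44.5 FPKM in T-DCs, 5.04, 8.90 and 9.97 FPKM in N-mDCs and 10.8, 4.17 and 3.99 in T-mDCs. Its log2 difference was 2.32 (standard error 0.41, limma adjusted p = 0.00793) for N-mDCs and 2.69 (limma adjusted p = 0.00458) for T-mDCs, higher in 3 of 3 T-DC samples. Slc29a1, a nucleoside transporter, was at 37.3, 42.0 and 57.9 FPKM in T-DCs, 16.9, 24.6 and 16.1 FPKM in N-mDCs, and 16.9, 11.5 and 11.3 in T-mDCs, with log2 differences of 1.21 and 1.71 (limma adjusted p = 0.0154 and 0.00422). For both genes T-DC sample 1 was above every mature sample, unlike Slc4a1, Rhd, Kel and Aqp1. The most abundant of the genes that rose, Stom, the stomatin gene, was at 68.9, 344.5 and 233 FPKM in T-DCs and at 42.4 to 48.4 FPKM in the 6 mature samples, with log2 differences of 1.89 and 2.0 (limma adjusted p = 0.0342 and 0.0304). Its calls were lost in 7 and 8 of the 9 fits that left out 1 sample, those without T-DC sample 2 or 3 among them. Atp2b4, a calcium pump, at 2.27, 53.6 and 37.3 FPKM in T-DCs and 0.2155 to 2.0 FPKM in the mature samples, had log2 differences of 3.12 and 3.75 (limma adjusted p = 0.0478 and 0.0278), and it lost both calls without T-DC sample 2 or 3. Add1, the gene of alpha-adducin, with a log2 difference of 1.47 against N-mDCs (limma adjusted p = 0.0387), lost the call in 8 of the 9 fits that left out 1 sample.

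Sptb, the gene of beta-spectrin, to which ankyrin binds, was at 1.71, 162 and 119 FPKM in T-DCs and at 0.409 to 1.61 FPKM in the mature samples, with log2 differences of 4.66 against T-mDCs (limma adjusted p = 0.0477) and 4.26 against N-mDCs (limma adjusted p = 0.0575). Among the mature samples Sptb reached 1 FPKM in N-mDC samples 2 and 3 alone. It thus passed the filter only with the help of T-DC samples, and its call supports nothing. Slc43a1, an amino acid transporter, and Cd59a, a complement inhibitor, had log2 differences of 4.12 and 2.75 against T-mDCs (limma adjusted p = 0.0470 and 0.0439). Cd59a was at 0.143 to 0.995 FPKM in the 6 mature samples and at 1.02, 11.9 and 23.6 FPKM in T-DCs, so it passed the filter only through the group where it was high and had to differ, and its call supports nothing. Sptb, Slc43a1 and Cd59a each lost the call in 8 of the 9 fits that left out 1 sample, all but the one without T-DC sample 1. Of the 10 list genes that did not pass the filter, 7, among them Add2, Tmod1, Xk, Art4, Smim1 and Abcb6 (named after their values were seen), were at 1 FPKM or more in T-DC samples 2 and 3 and below 1 FPKM in the other 7 samples, as were 0.828% of the 41786 genes that failed the filter. Failing the filter partly fixes this pattern, since a gene at 1 FPKM in both of these samples must then be below it in the other 7. Many of the 41786 genes could not show it and lower the share. Only 28859 of the 54532 genes in the table were above 0 in any sample.

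Sema7a, a GPI-anchored semaphorin that carries a blood group in humans and is also made by immune cells, moved the other way. It was at 7.82, 7.87 and 1.46 FPKM in T-DCs, 81.5, 41.5 and 61.9 FPKM in N-mDCs and 43.7, 55.8 and 57.0 in T-mDCs, with log2 differences of -3.39 and -3.19 (limma adjusted p = 0.00353 and 0.00464), and it kept both calls in 20 of 20 alternatives. Slc2a1, the glucose transporter gene, fell by 1.00 on the log2 scale against N-mDCs (limma adjusted p = 0.0474), a call lost without any 1 of 7 samples, T-DC samples 2 and 3 among them. Bsg and Actb were the most abundant genes of the lists that were not called in either comparison. Bsg, the gene of basigin, was at 114, 643 and 474 FPKM in T-DCs and at 74.2 to 133 FPKM in the mature samples (log2 differences 1.78 and 2.0, limma adjusted p = 0.0645 and 0.0502). Actb was at 1832, 1099 and 788 FPKM in T-DCs and at 1475 to 2194 FPKM in the mature samples (log2 differences -0.64 and -0.74, limma adjusted p = 0.177 and 0.151).

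**Figure D4:**
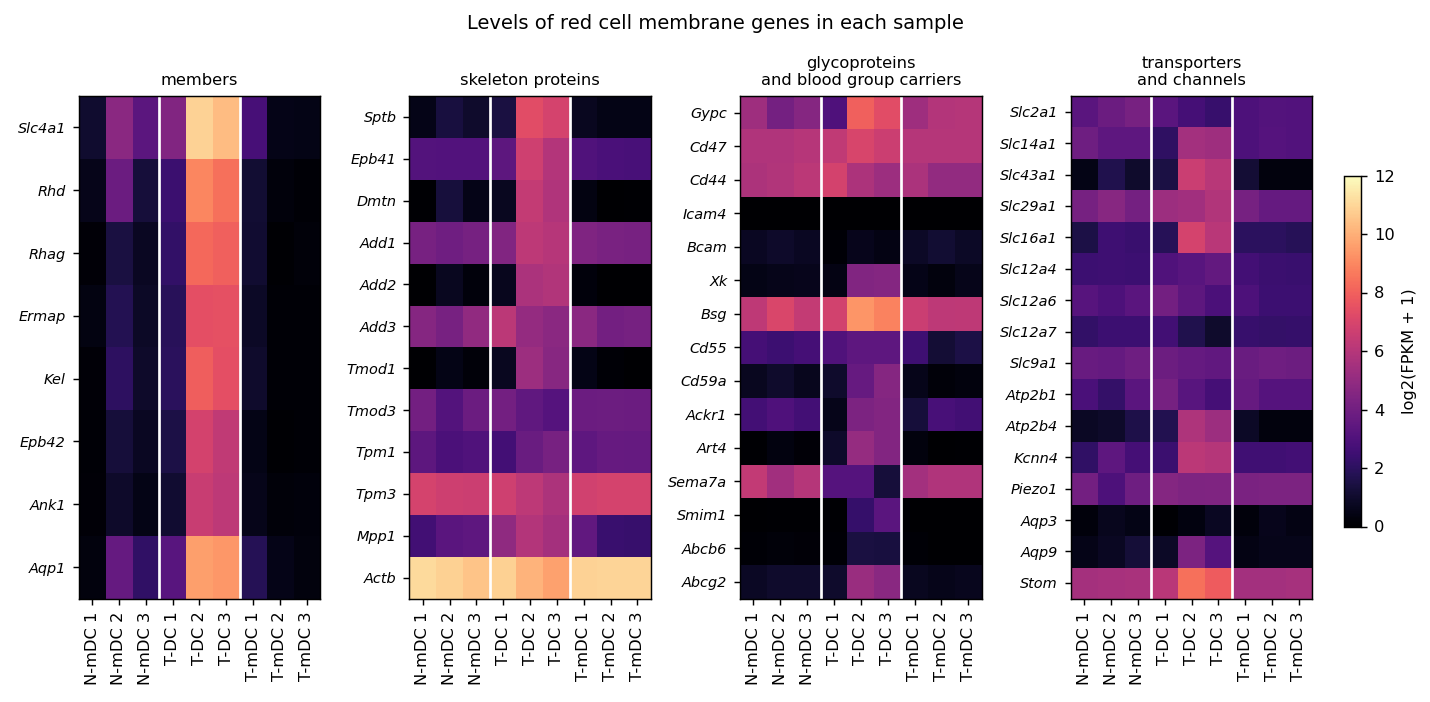
Levels of the 8 members and of genes of the 3 lists as log2(FPKM + 1), from 0 in black to 12 in pale yellow, with 1 column per sample and white lines between N-mDCs, T-DCs and T-mDCs. Within its row, Slc4a1 is brightest in T-DC samples 2 and 3 (1878 and 1304 FPKM), while Sema7a is darker in all 3 T-DC samples (1.46 to 7.87 FPKM) than in the mature samples.

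Relatives of the members that serve other tissues had their own levels. Of 15 such paralogs 4 passed the filter. Slc4a2, the anion exchanger of most cells, was at 5.19 to 7.85 FPKM in all 9 samples (log2 differences -0.02 and -0.25, limma adjusted p = 0.95 and 0.386). Tgm2, a transglutaminase of the family of Epb42, was at 77.6, 66.9 and 42.0 FPKM in T-DCs, 164.9, 128.5 and 116 FPKM in N-mDCs and 38.8, 34.1 and 34.3 in T-mDCs. It fell by 1.15 on the log2 scale in T-DCs against N-mDCs (limma adjusted p = 0.0179), and by 1.89 in T-mDCs against N-mDCs (limma adjusted p = 0.0126). The first of these calls did not hold without N-mDC sample 1, nor the second without N-mDC sample 2 or T-mDC sample 2 or 3, and with T-mDC samples 2 and 3 as 1 sample the second had an adjusted p of 0.0785 (limma). Ece1, a peptidase of the family of Kel, was at 27.7, 6.77 and 5.6 FPKM in T-DCs and at 30.6 to 75.9 FPKM in the mature samples, and fell by 2.49 against T-mDCs (limma adjusted p = 0.0172). That call needed T-DC samples 2 and 3 and T-mDC samples 2 and 3, each of which ended it when left out, and with the latter 2 as 1 sample the limma adjusted p was 0.0787. Rhbg, the most abundant relative of the Rh genes, was at 0 to 0.132 FPKM, Ank2 at 0.0207 to 0.316 FPKM and Aqp4 at 0 to 0.0325 FPKM.

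Over the 9 samples the members resembled each other with Pearson's r of log2(FPKM + 1) from 0.956 to 0.998. The same samples and libraries stand behind each of these values, and T-DC samples 2 and 3 weigh most in them, so they are given as a description. The 10 other genes most like the mean standardized profile of the members included Trim10, Slc43a1, Klf1, Ctse, Hemgn, Btnl10, Urod, Tal1 and Tspo2, with r from 0.9973 down to 0.996. Klf1 and Tal1 encode transcription factors of erythroid cells, Urod an enzyme of heme synthesis, and Ctse a cathepsin. Klf1 was at 3.65, 278 and 348 FPKM in T-DCs and Tal1 at 2.17, 208 and 168 FPKM, and neither was above 3.09 FPKM in a mature sample. In the mature samples Urod was higher than Klf1 and Tal1, at 5.73 to 14.1 FPKM, and in T-DCs it was at 11.7, 179 and 150 FPKM. Of 12738 tested genes that are no members, 79 had an r over 0.98 with this profile. Taken 1 member at a time, the gene most like Ank1 was Sptb (r = 0.9993), chosen after the values were seen.

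Markers of other cells moved between the same libraries. The 7 markers of DCs were all detected in T-DCs, but their summed level was 62.2 to 207 FPKM there, lowest in T-DC sample 3, against 356 to 528 FPKM in N-mDCs and 367 to 510 in T-mDCs, and Itgax, the gene of CD11c, was at 152, 90.4 and 43.0 FPKM in T-DC samples 1 to 3. The 10 erythroid regulators and enzymes summed to 108, 4730 and 3660 FPKM in T-DC samples 1 to 3, with 10 of 10 above T-DC sample 1 in both others, and to 30.1 to 118 FPKM in the mature samples, Car2 being the highest. All 6 neutrophil markers were above T-DC sample 1 in both other T-DC samples, with sums of 2.78, 1670 and 640 FPKM, S100a8 being the highest, against 15.5 to 232 FPKM in N-mDCs and 1.56 to 5.53 in T-mDCs. Megakaryocyte and platelet markers, Gp9 being the highest and Gp1bb at 0 in all T-DC samples, followed at 0.812, 22.3 and 16.5 FPKM, against 1.09 to 19.6 FPKM in N-mDCs and 1.03 to 4.67 in T-mDCs. Markers of red pulp macrophages, which take up old red cells and of which Hmox1 was the highest, ran the other way in T-DCs, at 2200, 752 and 436 FPKM, and were at 1570 to 2950 FPKM in N-mDCs and 273 to 1030 in T-mDCs. The sum of the 7 endothelial markers, of which Sox17 was at 0, was 111, 71.7 and 40 FPKM in T-DCs, 25.2 to 29.9 FPKM in N-mDCs and 24.9 to 45.6 in T-mDCs, and Pecam1 made up most of it, at 106, 67.3 and 32.6 FPKM in T-DCs. Cdh5 also fell across the T-DC samples, at 4.623, 1.443 and 1.395 FPKM in samples 1 to 3. Egfl7, Plvap and Kdr did not follow the endothelial sum. Egfl7 was at 0.0624, 1.21 and 2.501 FPKM and Plvap at 0.253, 1.49 and 2.98 FPKM in T-DC samples 1 to 3, while Kdr was at 0.257 to 0.538 FPKM in T-DCs against 4.94 to 8.05 FPKM in T-mDCs. Markers of T-lineage cells summed to 12.4 to 28.5 FPKM in T-DCs and 57.3 to 116 FPKM in the mature samples, sums that Cd4 and Cd8a dominate in the mature samples and that subsets of DCs share. The T-cell genes Cd3d, Cd3e, Cd3g and Lck were higher in T-DC sample 2 than in T-DC sample 1, with Cd3d at 0.215, 5.94 and 0.762 FPKM in T-DC samples 1 to 3 and Lck at 0.572, 10.2 and 3.78 FPKM, against 0.525 to 4.38 and 1.28 to 11.8 FPKM in the mature samples. The sums for B cells (31.2 to 88.7 FPKM, with Cd79b at 33.2, 33.6 and 13.1 FPKM) and for basophils and mast cells (0.204 to 7.20 FPKM, Prss34 being the highest) in T-DCs compare with 49.4 to 283 and 0.0349 to 5.71 FPKM in the mature samples. The part of these cells in the levels of the 8 genes was not tested.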

How the data were processed

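The authors deposited FPKM per gene for 9 libraries, made from total RNA of sorted spleen DCs (genome build mm10 per the labels). The aligner, the counter and the use of strand were not given in the sources used here. Whole reads were recovered from FPKM and gene length, with a largest deviation of 4.56e-05 reads, and the FPKM proved to be scaled already by the median of ratios between samples. The 12746 genes that reached 1 FPKM in 3 or more samples were tested as log2(FPKM + 1) with limma 3.58.1 in R 4.3.3 (3 groups in 1 fit, trend, Benjamini-Hochberg over all tested genes, threshold 0.05). The fit was tested on simulated data in which all samples shared the same dispersion and no library stood apart. That test does not cover a spread like that of the T-DC samples. Ratios of single libraries carry exact 95% intervals from the reads. Positions were compared with GENCODE M21.

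The members and all lists were chosen with earlier results of these data known. Named genes are the 8 members, and of the lists the largest called changes, the most abundant genes that were not called, the most abundant paralog of each family, the 10 genes most like the members and the highest marker of each list. Alternatives were another pseudocount, other filters and scalings, a fit of only the groups compared, a replicate block, limma voom on recovered reads, and samples left out or averaged. Replicate numbers did not pair the samples, and scaling by total reads was added after seeing the data. Some genes that the rule names are not reported here.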

Additional observations from a re-analysis of the deposited data

How the results depend on the processing

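No member was called between the mature groups under any of the 20 alternatives (lowest adjusted p = 0.266 over 155 values), and the difference of Ank1 ran from -0.39 to 0.0078 with 1 sample left out, changing sign without N-mDC sample 2. With T-DC sample 1 alone the median log2 difference of the members moved to 0.87 against N-mDCs and 1.61 against T-mDCs, and without 1 sample it ran from 3.65 to 6.72 and from 4.46 to 7.45. Rescaled to TPM, the median ratio of the members was 68.9 for T-DC sample 2 over sample 1, 46.8 for sample 3 over sample 1 and 0.674 for sample 3 over sample 2, and scaled by total reads the last was 0.809. Rescaling to TPM moved the median log2 difference of all tested genes from 0.07 to -0.23 in T-DCs against T-mDCs from 0.05 to -0.07 against N-mDCs, and from 0.03 to 0.21 in T-mDCs against N-mDCs.

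For the 3 lists, the counts of genes higher in T-DCs, 7 against N-mDCs and 11 against T-mDCs, were 3 and 4 with no filter, 2 and 2 with only the groups compared, 3 and 2 with T-mDC samples 2 and 3 as 1 sample, and 0 and 3 with T-DC sample 1 alone, and 7 against T-mDCs with limma voom. The counts of lower genes, 2 and 1, were 1 against N-mDCs with no filter, TPM, only the groups compared or T-mDC samples 2 and 3 as 1 sample, and 2 against T-mDCs with TPM or T-DC sample 1 alone. Without 1 sample, the higher counts ran from 1 to 22 and from 2 to 22, and the lower counts from 1 to 5 and from 1 to 4. The largest counts came without T-DC sample 1. The replicate block gave 3 and 6 higher and 1 and 1 lower. The cause of these moves was not tested.

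Same-numbered samples did not deviate together (r from -0.475 to 0.269), so the block changes only what the shared numbers take up. CCNCNCCC was in 1 of the 6 promoters when only bases before the start were searched, and GATA motifs in 5. With 3 samples a group and 2 of 3 T-DC samples far from the first, differences under several-fold could not be detected for these genes.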
